A study of Mus musculus with 16 samples.

Results

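The 9 genes described here mark naive and memory T cells. They were named one by one (Ccr7, Il7r, Tcf7, Lef1, S1pr1, Klf2, Foxo1, Satb1 and Bach2) and were matched by symbol to the deposited table. All 9 were found among its 15571 genes, and all 9 were among the 14985 genes that passed the filter on low counts and were tested. RNA sequencing was done on mouse CD4 T cells driven toward the Th17 fate. Naive CD4 T cells of mouse spleens and lymph nodes were isolated with magnetic beads and kept for 3 days in culture. The wells held plate-bound anti-CD3 (5 µg/mL), anti-CD28 (1 µg/mL), IL-6 (30 ng/mL), TGFβ (2 ng/mL) and an antibody against IFNγ (5 µg/mL). The 16 libraries fall into 4 groups of 4. KO acetate cells came from PDH fl/fl CD4 Cre+ mice and had 10 mM sodium acetate during the differentiation. KO untreated cells came from the same genotype without acetate. WT acetate cells came from PDH fl/fl mice without Cre and had the same acetate. WT untreated cells had the WT genotype and no acetate. All groups therefore carry the floxed alleles and the Th17 cytokines. The sample titles write PHD where the protocols write PDH, and the series title names pyruvate dehydrogenase. PDH is used here. No group controls for the Cre alone or for the sodium, and the ages of the mice are not stated in the labels.

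Naive T cells recirculate through lymph nodes and stay quiescent between encounters with antigen. The transcription factor FOXO1 keeps KLF2, CCR7 and the IL-7 receptor expressed in resting T cells, and signalling from the antigen receptor and PI3K drives FOXO1 out of the nucleus. TCF1 (encoded by Tcf7), LEF1, BACH2 and SATB1 are nuclear factors that uphold naive, memory or developmental programmes in T cells, while CCR7 and S1PR1 are the receptors for entry into and exit from lymph nodes.

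Promoter sequences are shown for 4 of the genes that were called in KO cells treated with acetate, and for Tcf7, which was not called, so that genes that moved together can be compared by eye. They are RefSeq windows on the GRCm38.p6 assembly, with 250 bases before and 50 bases after an annotated start, written 5′ to 3′ on the gene's strand. Such windows were found for 7 of the 9 genes, 15 windows in all. Ccr7 and S1pr1 are named without one. Where a gene had several windows, 1 with a motif match is printed. Capitals mark exact matches, on either strand, to 6 short motifs that were searched, namely GTAAACA (FOXO), ATCAAAG (TCF/LEF), GGGTGTG (KLF), TGAGTCA (AP-1 and BACH), TGTGGTT (RUNX) and CAGGAAG (ETS). No capitals overlapped.
Satb1 chr17:51833241-51833540 (minus strand): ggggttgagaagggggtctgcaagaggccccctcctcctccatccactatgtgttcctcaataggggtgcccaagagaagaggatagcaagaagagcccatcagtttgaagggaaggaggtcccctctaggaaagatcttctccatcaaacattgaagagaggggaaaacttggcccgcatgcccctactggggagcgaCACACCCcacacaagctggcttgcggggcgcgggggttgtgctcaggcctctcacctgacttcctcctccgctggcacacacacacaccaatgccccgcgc
Lef1 chr3:131156044-131156343 (plus strand): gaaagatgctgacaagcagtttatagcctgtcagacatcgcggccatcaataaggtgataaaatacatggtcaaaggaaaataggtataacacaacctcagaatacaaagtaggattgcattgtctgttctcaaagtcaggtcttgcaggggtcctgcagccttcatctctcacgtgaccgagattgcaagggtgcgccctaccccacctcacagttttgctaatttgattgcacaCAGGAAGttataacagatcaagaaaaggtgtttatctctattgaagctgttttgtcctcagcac
Il7r chr15:9529827-9530126 (minus strand): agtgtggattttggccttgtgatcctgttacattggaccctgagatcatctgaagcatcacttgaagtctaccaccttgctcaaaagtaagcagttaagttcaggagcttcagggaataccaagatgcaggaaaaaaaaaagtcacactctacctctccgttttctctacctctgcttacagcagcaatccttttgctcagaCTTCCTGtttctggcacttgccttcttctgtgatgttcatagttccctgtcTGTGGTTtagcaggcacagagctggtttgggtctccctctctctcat
Klf2 chr8:72318812-72319111 (plus strand): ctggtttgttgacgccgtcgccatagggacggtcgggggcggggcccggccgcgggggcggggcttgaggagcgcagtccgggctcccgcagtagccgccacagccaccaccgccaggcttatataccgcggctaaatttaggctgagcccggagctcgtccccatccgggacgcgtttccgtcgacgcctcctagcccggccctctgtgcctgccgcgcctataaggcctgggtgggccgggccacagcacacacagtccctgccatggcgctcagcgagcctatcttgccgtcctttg
Tcf7 chr11:52282546-52282845 (minus strand): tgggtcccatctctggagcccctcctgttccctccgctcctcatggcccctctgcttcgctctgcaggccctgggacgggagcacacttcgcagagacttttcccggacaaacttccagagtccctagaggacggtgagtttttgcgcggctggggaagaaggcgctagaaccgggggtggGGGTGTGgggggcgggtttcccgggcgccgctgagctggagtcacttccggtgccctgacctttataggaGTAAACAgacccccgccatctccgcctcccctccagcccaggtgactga
The capitals in Satb1 are a KLF match on the opposite strand, and those in Lef1 an ETS match. Il7r holds an ETS match on the opposite strand and a RUNX match, and Tcf7 a KLF and a FOXO match. The Klf2 window holds none of the 6 motifs. Of all 32851 mouse windows of this length, 3.65% hold the FOXO letters, 3.73% the TCF/LEF, 7.95% the KLF, 5.2% the AP-1 and BACH, 5.27% the RUNX and 13.3% the ETS letters. In all, 5 of the 15 windows of these genes held at least 1 match. The share of all mouse windows with any of the 6 motifs was not counted, so this number has no background beside it. Of the 3 genes shown that were lower with acetate in KO cells, Lef1 and Il7r hold the ETS letters and Klf2 does not. The ETS letters also stand in a Satb1 window that is not printed, and Satb1 rose. The other Lef1 windows hold none of the 6 motifs. A match is a description of these letters only.

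Library totals lay between 24.57 and 33.72 M counts. In 4 libraries (KO acetate 2, KO untreated 1 and 2, WT untreated 1) 1 gene with no symbol took over 3% of all counts, and its share ranged from 0.267% to 9.14% over the 16 libraries. The labels do not say which PDH gene or exon was deleted. Pdha1, the gene for the E1 alpha subunit of pyruvate dehydrogenase, averaged 248 ± 13 CPM in KO acetate, 225 ± 11.5 in KO untreated, 259 ± 10.8 in WT acetate and 247 ± 12.6 in WT untreated libraries (SD, n = 4 each). It was called in neither KO against WT comparison (adjusted p 0.0761 untreated, 0.597 with acetate). Counts over a whole gene can miss the loss of an exon, so the KO label was not checked by these values. Levels are CPM, a gene's reads per M reads of the TMM-scaled library. Adjusted p-values are from edgeR's quasi-likelihood test with Benjamini-Hochberg adjustment over 14985 genes, and genes with an adjusted p under 0.05 are termed called. The labels do not state whether the libraries of a group stem from different mice or cultures. The p-values therefore reflect the spread among these libraries only, and that spread may be technical.

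Of 10 T cell marker genes all were in the table, and their summed level was 2530 to 2750 CPM in KO acetate, 2710 to 2960 in KO untreated, 2760 to 2920 in WT acetate and 3100 to 3310 in WT untreated libraries. The sum of 8 Th17 markers was 1900 to 3200 CPM in KO acetate, 1100 to 1490 in KO untreated, 1510 to 2360 in WT acetate and 987 to 1390 in WT untreated libraries. Il17a and Il17f averaged 868 and 1120 CPM in KO acetate, and 137 and 419 in KO untreated libraries. With acetate in KO cells Il21 fell (log2 fold change -0.66, adjusted p = 0.000265), Ccr6 was not called and the others rose. In KO untreated against WT untreated cells Il23r (-1.8, 1.7e-07) and Il1r1 (-0.48, 0.00814) were lower. Ccr6 (0.62, 6.55e-05) and Il21 (0.77, 0.000105) were higher there, and the others were not called. Markers of other cells were low. B cell markers (5 of 5 in the table) summed to between 1.13 and 5.64 CPM, NK cell markers (3 of 5) to between 8.12 and 11.9 CPM, and myeloid markers (4 of 7) to between 1.75 and 4.18 CPM. Cd8a and Cd8b1 together stood at 13.7 to 18.2 CPM in KO acetate, 5.13 to 8.35 in KO untreated, 13.1 to 17.2 in WT acetate and 9.08 to 11.2 in WT untreated libraries. The T cell, Th17 and CD8 sums thus moved with the groups that the 9 genes are compared between, and their part in the results was not tested. In bulk RNA, fewer cells of a type and less RNA per cell cannot be told apart.

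**Figure D1:**
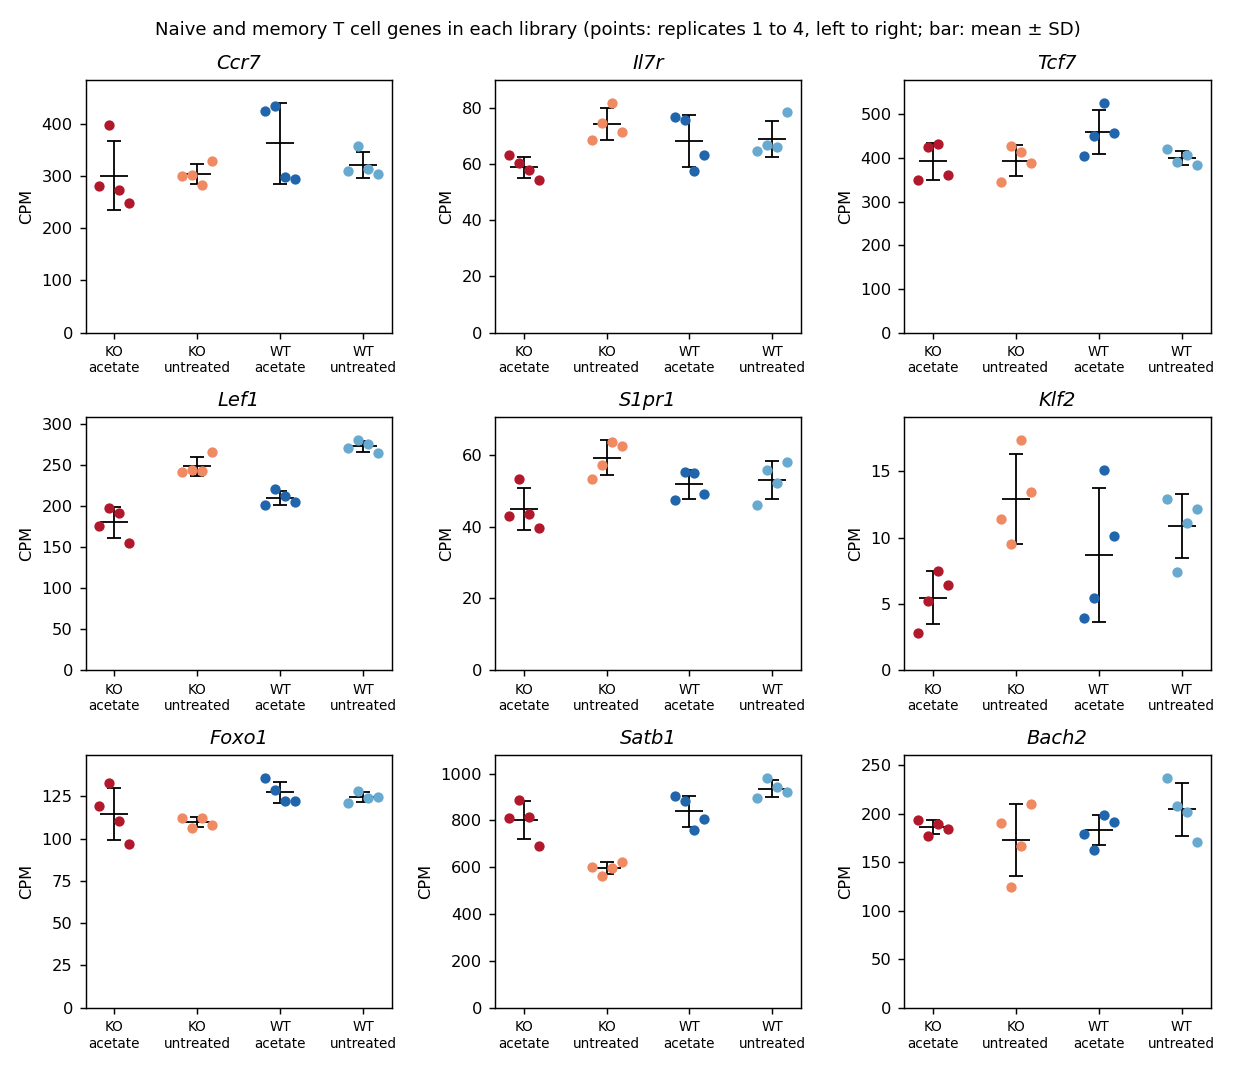
Level of each of the 9 genes in every library, in CPM on a linear axis from 0, by group; points are the 4 libraries of a group in the order of their replicate numbers and bars are mean ± SD. Satb1 is lowest in the 4 KO untreated libraries (561 to 623 CPM), and Lef1 is lower in both acetate groups than in both untreated groups.

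The knockout without acetate touched mainly Satb1 among these genes. Satb1, a chromatin organiser that is high in developing and naive T cells, had 601, 561, 596 and 623 CPM in KO untreated libraries, against 895, 982, 942 and 923 CPM in WT untreated libraries. The groups did not overlap, and every KO untreated library lay far under the lowest WT untreated library. The level fell by 0.65 on the log2 scale (SE 0.076, 95% interval -0.81 to -0.49, adjusted p = 3.74e-06), a 1.57-fold lower level in KO untreated cells.

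Foxo1, the factor that sustains the resting programme, had 112, 106, 112 and 108 CPM in KO untreated libraries, against 121, 128, 124 and 125 CPM in WT untreated libraries. The 4 libraries of one group did not overlap those of the other, yet the difference was small and was not called (log2 fold change -0.18, SE 0.072, 95% interval -0.34 to -0.03, adjusted p = 0.0539). It was called in 6 of the alternative settings, with adjusted p-values of 0.00949 to 0.0491. The other 7 genes overlapped between the groups and were not called. Their log2 fold changes ran from -0.24 for Bach2 (adjusted p = 0.15) through -0.14 for Lef1 (0.115) to 0.16 for S1pr1 (0.185) and 0.25 for Klf2 (0.653). Bach2, a repressor of effector differentiation, was spread widely in KO untreated libraries, from 124 to 211 CPM, and without KO untreated replicate 4 its difference was called (-0.35, adjusted p = 0.0389). In all, 0 of the 9 genes were called higher and 1 lower, where 36.6% of all tested genes were called (18% higher, 18.6% lower). For 2 of the 9 the libraries of the groups did not overlap, against 36% of all tested genes. The median log2 fold change of the 9 genes was -0.08, and that of all tested genes was 0.01.

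Acetate in KO cells moved 5 of the 9 genes, 4 down and 1 up. Lef1, S1pr1, Il7r and Klf2 fell and Satb1 rose, all 5 with no overlap between KO acetate and KO untreated libraries. The share of all tested genes called was 43.7% (22.1% higher, 21.6% lower), and 37.7% of all tested genes did not overlap between these groups. The count of 5 in 9 is therefore near the background, and the median log2 fold change of the 9 genes (-0.02) was close to that of all tested genes (-0.01). This comparison and the one before it share the KO untreated libraries.

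Satb1 had 812, 886, 816 and 690 CPM in KO acetate libraries, against 601, 561, 596 and 623 CPM in KO untreated libraries. All 4 KO acetate libraries were above the highest KO untreated one. The rise was 0.43 on the log2 scale (SE 0.075, 95% interval 0.27 to 0.59, adjusted p = 0.000145), or 1.35-fold.

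Lef1, the partner of TCF1 in naive and memory T cells, had 175, 197, 192 and 155 CPM in KO acetate libraries, against 241, 243, 242 and 266 CPM in KO untreated libraries. The highest KO acetate library was well under the lowest KO untreated one. Lef1 fell by 0.46 on the log2 scale (SE 0.066, 95% interval -0.6 to -0.33, adjusted p = 1.7e-05).

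S1pr1, the receptor that leads T cells out of lymph nodes along sphingosine 1-phosphate, had 43.0, 53.2, 43.6 and 39.6 CPM in KO acetate libraries, against 53.2, 57.2, 63.7 and 62.6 CPM in KO untreated libraries. KO acetate replicate 2 and KO untreated replicate 1 met at the edge without overlap, and the other libraries were apart. S1pr1 fell by 0.4 on the log2 scale (SE 0.092, adjusted p = 0.00158).

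Il7r, the alpha chain of the receptor for the survival cytokine IL-7, had 63.1, 60.2, 57.8 and 54.2 CPM in KO acetate libraries, against 68.6, 74.6, 81.7 and 71.3 CPM in KO untreated libraries. Every KO acetate library was under every KO untreated one. Il7r fell by 0.33 on the log2 scale (SE 0.09, adjusted p = 0.00575). Scaled by library totals alone the difference was -0.23 and was not called (adjusted p = 0.0932).

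Klf2, the factor that drives S1pr1 and other trafficking genes, was the lowest in reads, with 83 to 513 counts a library. It had 2.8, 5.2, 7.52 and 6.39 CPM in KO acetate libraries, against 11.4, 9.49, 17.3 and 13.4 CPM in KO untreated libraries. The groups did not overlap, but each was spread over a wide range, with coefficients of variation of 36.9% in KO acetate and 26.1% in KO untreated libraries. Klf2 fell by 1.24 on the log2 scale (SE 0.4, 95% interval -2.1 to -0.38, adjusted p = 0.0221). The call was lost without KO acetate replicate 1 (-1.02, adjusted p = 0.0606), without KO acetate replicate 2 (-1.22, 0.0511), without KO untreated replicate 3 (-1.07, 0.0646) and without the 4 libraries in which 1 gene took over 3% of counts (-1.48, 0.0806).

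The other 4 genes were not called, and their libraries overlapped. Ccr7, the chemokine receptor for entry into lymph nodes, ran from 249 to 397 CPM in KO acetate and from 284 to 329 CPM in KO untreated libraries. Tcf7 ran from 349 to 432 CPM in KO acetate and from 345 to 427 CPM in KO untreated libraries. Foxo1 ran from 96.5 to 133 CPM in KO acetate and from 106 to 112 CPM in KO untreated libraries. Bach2 ran from 177 to 193 CPM in KO acetate and from 124 to 211 CPM in KO untreated libraries. Their log2 fold changes lay between -0.02 and 0.11.

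In WT cells Lef1 was the only 1 of the 9 genes called with acetate. Lef1 had 201, 221, 212 and 205 CPM in WT acetate libraries, against 270, 280, 276 and 265 CPM in WT untreated libraries. The groups were apart, and each was tight, with SDs of 8.55 CPM in WT acetate and 6.59 CPM in WT untreated libraries. Lef1 fell by 0.38 on the log2 scale (SE 0.066, 95% interval -0.52 to -0.24, adjusted p = 0.000774). None of the 9 genes was called higher and 1 was called lower, where 15.4% of all tested genes were called (7.89% higher, 7.55% lower). For 1 of the 9 the groups did not overlap, against 21.3% of all tested genes.

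Tcf7 averaged 459 ± 50.7 CPM in WT acetate and 400 ± 16.2 CPM in WT untreated libraries (SD, n = 4 each), a difference that was not called (log2 fold change 0.2, adjusted p = 0.141). Ccr7 split into a higher and a lower pair in WT acetate libraries (425, 434, 297 and 294 CPM), against 309, 356, 314 and 304 CPM in WT untreated libraries (log2 fold change 0.18, adjusted p = 0.472). Klf2 was also uneven, with 3.93, 5.45, 15.1 and 10.1 CPM in WT acetate libraries, against 12.9, 7.42, 11.1 and 12.2 CPM in WT untreated libraries (-0.33, adjusted p = 0.635). Satb1 averaged 839 ± 67 CPM in WT acetate and 936 ± 36.5 CPM in WT untreated libraries, and was not called (-0.16, adjusted p = 0.175).

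**Figure D2:**
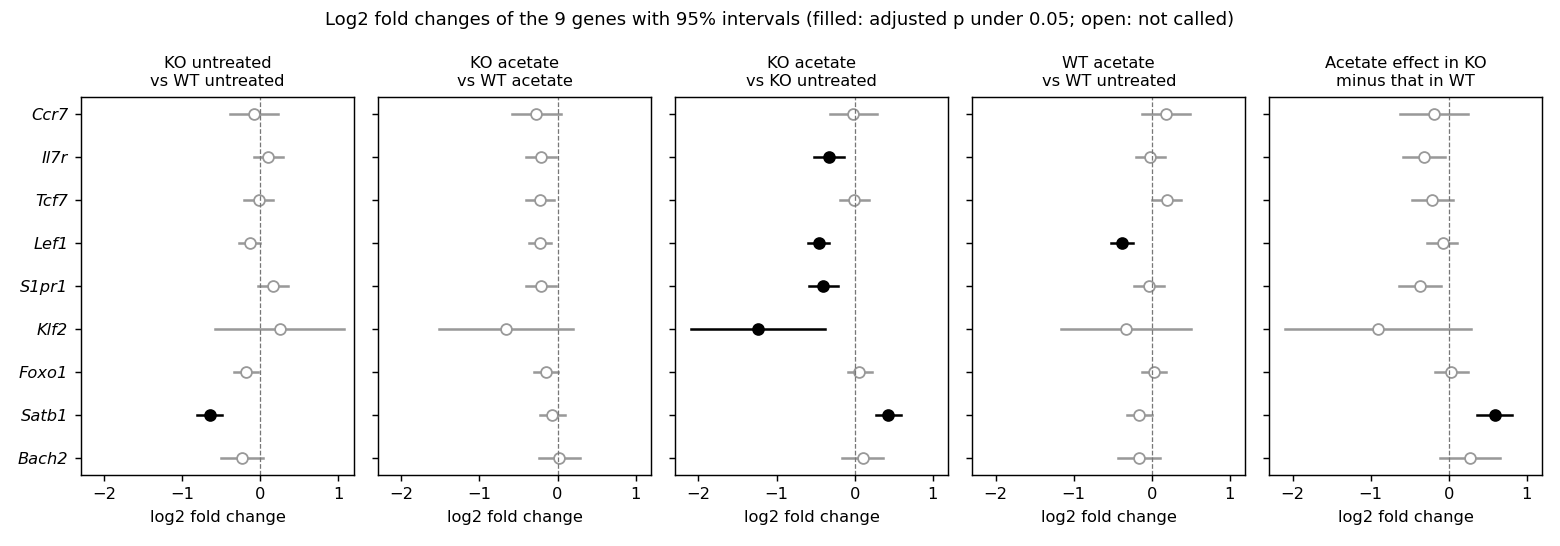
Log2 fold change of each of the 9 genes (points) with its 95% interval (lines) in 5 comparisons; filled black points have an adjusted p under 0.05 and open grey ones do not. Satb1 is at -0.65 for KO untreated against WT untreated, 0.43 for KO acetate against KO untreated and 0.59 for the difference of the 2 acetate effects.

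Whether acetate acted differently in KO than in WT cells was tested by the interaction, in which the effect of acetate on WT cells is subtracted from its effect on KO cells. Satb1 alone of the 9 genes was called. Its acetate effect was 0.43 in KO cells and -0.16 in WT cells on the log2 scale, a difference of 0.59 (SE 0.11, 95% interval 0.36 to 0.81, adjusted p = 0.00188). Of all tested genes, 11.9% were called here (6.37% higher, 5.54% lower). For Lef1, which fell in both genotypes, the difference was -0.08 (SE 0.093, 95% interval -0.28 to 0.11, adjusted p = 0.614). S1pr1 and Il7r were called in KO cells and not in WT cells, but their differences between genotypes were not called (S1pr1 -0.37, adjusted p = 0.0718; Il7r -0.32, adjusted p = 0.114). S1pr1 was called without KO untreated replicate 1 (adjusted p = 0.0452) and without KO acetate replicate 2 (0.0167), and without the 4 libraries with a high share of 1 gene (-0.49, 0.0165). Il7r was called without WT acetate replicate 3 (0.0419). Of the 16 fits with 1 library left out, S1pr1 was called in 2 (adjusted p 0.0167 to 0.13) and Il7r in 1 (0.0419 to 0.212).

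With acetate in both genotypes, none of the 9 genes was called between KO acetate and WT acetate cells by edgeR, where 1% of all tested genes were called (0.487% higher, 0.514% lower). An unadjusted p under 0.05 was reached by 4 of the 9 and by 18.4% of all tested genes. DESeq2 called 1 of them, Lef1 (adjusted p = 0.0209), and limma-voom called 0. Over all tested genes DESeq2 called 334 higher and 497 lower, against 73 and 77 by edgeR. Lef1 averaged 180 ± 18.7 CPM in KO acetate and 210 ± 8.55 CPM in WT acetate libraries, with no overlap (log2 fold change -0.22, SE 0.066, adjusted p = 0.0947), and it was the only 1 of the 9 without overlap, against 9.36% of all tested genes. Satb1 averaged 801 ± 81.6 CPM in KO acetate and 839 ± 67 CPM in WT acetate libraries. Its log2 fold change was -0.07 with a 95% interval of -0.22 to 0.09 (adjusted p = 0.681). Of the 9 genes, 8 had a mean below that of WT acetate libraries, with log2 fold changes from -0.66 for Klf2 to -0.07 for Satb1, and the median was -0.21, against 0.01 for all tested genes. Without KO acetate replicate 2, Ccr7 (-0.44, adjusted p = 0.0472), Lef1 (-0.27, 0.0286) and Foxo1 (-0.24, 0.0419) were called lower in KO acetate cells. In that fit 236 genes of all those tested were called higher and 425 lower, against 73 and 77 in the main fit.

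Against WT untreated cells, KO acetate cells were lower in Lef1 and Satb1. Lef1 averaged 180 ± 18.7 CPM in KO acetate and 273 ± 6.59 CPM in WT untreated libraries (log2 fold change -0.6, SE 0.066, 95% interval -0.74 to -0.46, adjusted p = 7.48e-06). Satb1 averaged 801 ± 81.6 CPM in KO acetate and 936 ± 36.5 CPM in WT untreated libraries (-0.22, SE 0.075, adjusted p = 0.0343). The Satb1 call was lost without any 1 of WT untreated replicates 2, 3 and 4 or KO acetate replicates 1, 3 and 4, with library totals (-0.18, adjusted p = 0.132) and with a mean of at least 5 CPM required (-0.18, 0.0713), and its value over the libraries left out ran from -0.28 to -0.16. In all 0 of the 9 genes were called higher and 2 lower, where 26.4% of all tested genes were called (12.9% higher, 13.5% lower). Il7r (-0.23, adjusted p = 0.0691) did not overlap between the groups and was not called, but was called with DESeq2 (0.0487) and with only the groups compared in the fit (0.03). Klf2 averaged 5.47 ± 2.02 CPM in KO acetate and 10.9 ± 2.43 CPM in WT untreated libraries and was not called (-0.99, SE 0.4, adjusted p = 0.0826). It was called with DESeq2 (-1, 0.0487), with only the groups compared (-1, 0.0327) and with a replicate block (-1.06, 0.0176). S1pr1 (-0.24, adjusted p = 0.0581) was called with DESeq2 (0.0428), with the block (0.0282), without WT untreated replicate 1 (-0.31, 0.0237), without KO acetate replicate 2 (-0.34, 0.00842) and without the 4 libraries with a high share of 1 gene (-0.41, 0.0022). With 1 library left out, Il7r stayed uncalled at -0.27 to -0.16 (adjusted p 0.0588 to 0.208). Klf2 stayed uncalled as well, at -1.19 to -0.77 (0.074 to 0.201). S1pr1 ran from -0.34 to -0.19 (0.00842 to 0.156). Without overlap were 3 of the 9 genes and 28.4% of all tested genes.

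The order of the 4 group means differed among the genes. KO acetate was lowest for 6 of the 9 (Ccr7, Il7r, Tcf7, Lef1, S1pr1 and Klf2), and KO untreated was lowest for the other 3 (Foxo1, Satb1 and Bach2). Il7r, S1pr1 and Klf2 were all highest in KO untreated cells, then WT untreated, WT acetate and KO acetate cells, and neighbours in that order did not differ beyond the test. Lef1 ran from WT untreated through KO untreated and WT acetate to KO acetate cells. Its first and last steps were not called, and the middle one was not tested. Ccr7 and Tcf7 ran from WT acetate through WT untreated and KO untreated to KO acetate cells, with no step called. Foxo1 ran from WT acetate through WT untreated and KO acetate to KO untreated cells, and Bach2 from WT untreated through KO acetate and WT acetate to KO untreated cells. None of their pairs of groups that were tested was called. Satb1 ran from WT untreated through WT acetate and KO acetate to KO untreated cells, and only its last step, KO acetate against KO untreated, was called between neighbours. The range of the group means was 0.61 on the log2 scale for Lef1 and 0.65 for Satb1, against SDs within groups of 0.091 and 0.1. For Ccr7 the range was 0.27 and the SD 0.22, and for Klf2 1.28 and 0.59.

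The genes with the most similar pattern were sought as those with the smallest root mean square difference of row-centred log2 CPM over the 16 libraries, among 9390 named genes that averaged 5 CPM or more. For Lef1 they were Pskh1 (0.046) and Cic (0.07), where the median over those genes was 0.29. For Satb1 they were Plekha2 (0.065) and Wipf1 (0.073), with a median of 0.3. Il7r was nearest to Hadh (0.095) and Dnajc10 (0.096), and S1pr1 to Atp6v1b2 and Rps4x (0.11 each). Tcf7 was nearest to Ksr1 (0.093), Foxo1 to Map3k14 (0.072) and Dcaf12 (0.073), Bach2 to Cabin1 (0.096) and Dhx33 (0.1), and Ccr7 to Adprh (0.11) and Rnaseh2a (0.13). Klf2 varied more over the libraries than the others (SD 0.71 on the log2 scale) and was nearest to Igfbp4 (0.29) and Tgtp1 (0.3), with a median of 0.72. For the other 6 genes the medians were 0.21 to 0.28. The SDs over the libraries were 0.25 for Lef1, 0.26 for Satb1, 0.17 for Il7r and 0.19 for S1pr1. They were 0.15 for Tcf7, 0.13 for Foxo1, 0.2 for Bach2 and 0.22 for Ccr7. In a gene that varies little, a small difference can arise without a shared pattern. No gene of the 9 was among the nearest of another.

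Other naive, quiescence and memory genes moved in both directions. In KO untreated against WT untreated cells, 5 of 35 rose and 13 fell, with a median log2 fold change of -0.23, where 18% of all tested genes rose and 18.6% fell and their median was 0.01. Over all tested genes, 22.1% rose and 21.6% fell with acetate in KO cells (median -0.01), and 7.89% rose and 7.55% fell with acetate in WT cells (median 0). Some genes, such as Klf3 and Id3, stand on more than 1 of the lists described from here on. Cd27, a co-stimulatory receptor of naive and memory cells, averaged 27.6 ± 2.57 CPM in KO untreated and 37.8 ± 2.27 CPM in WT untreated libraries and fell (-0.45, adjusted p = 0.000119). Ets1, a transcription factor of resting T cells, averaged 374 ± 21.1 CPM in KO untreated and 510 ± 21.9 CPM in WT untreated libraries and fell (-0.45, adjusted p = 7.83e-05). Ly6c1 fell (-2.42, adjusted p = 6.81e-06) at levels of 0.246 ± 0.114 CPM in KO untreated and 1.35 ± 0.238 CPM in WT untreated libraries. Id3, an inhibitor of E proteins, rose (0.9, adjusted p = 2.72e-06). With acetate in KO cells 10 of the 35 rose and 11 fell. Bcl6, a repressor that directs follicular helper T cells, averaged 35.5 ± 0.27 CPM in KO acetate and 16.8 ± 2.77 CPM in KO untreated libraries and rose (1.08, adjusted p = 4.12e-08). Txk, a Tec-family kinase, rose as well (0.88, adjusted p = 1.13e-06), and Treml2 fell (-0.81, adjusted p = 3.66e-07). In WT cells acetate raised 8 of the 35 and lowered 6.

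Among 17 other targets of FOXO1, 4 rose and 10 fell with acetate in KO cells, with a median log2 fold change of -0.37, beside 22.1% higher and 21.6% lower over all tested genes. In WT cells 0 rose and 4 fell, beside 7.89% and 7.55%. In KO untreated against WT untreated cells 6 rose and 5 fell, beside 18% and 18.6%. Gadd45a, a stress-response gene, averaged 4.59 ± 0.216 CPM in KO acetate, 12.9 ± 1.85 in KO untreated, 3.09 ± 0.412 in WT acetate and 3.35 ± 0.714 in WT untreated libraries. It was higher in KO untreated than in WT untreated cells (1.94, adjusted p = 9.96e-08) and fell with acetate in KO cells (-1.49, adjusted p = 4.21e-07). Klf3, a repressor of the KLF family, fell with acetate in KO cells (-0.66, adjusted p = 1.7e-05). Ctla4, an inhibitory receptor, averaged 569 ± 39.5 CPM in KO acetate, 162 ± 22.4 in KO untreated, 470 ± 119 in WT acetate and 355 ± 56.8 in WT untreated libraries. Ctla4 rose with acetate in KO cells (1.81, adjusted p = 4.89e-07), the opposite direction to most of this list, and was lower in KO untreated than in WT untreated cells (-1.13, adjusted p = 8.18e-05).

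The list of PI3K and AKT signalling also holds the relatives Foxo3 and Foxo4, and Pik3ip1 and Rictor stand on the list of FOXO1 targets too. Of its 15 genes, 1 rose and 4 fell in KO untreated against WT untreated cells, and 2 rose and 5 fell with acetate in KO cells, Foxo4 and Pik3ip1 among those that fell. The shares of all tested genes were 18% and 18.6% in the first comparison and 22.1% and 21.6% in the second. Without the 4 libraries with a high share of 1 gene, 1 rose and 1 fell in KO untreated cells. Over all tested genes, calls in that comparison fell from 2699 higher and 2782 lower to 1577 and 1784. Pik3r1, the regulatory subunit of PI3K, averaged 67.2 ± 4.86 CPM in KO acetate, 114 ± 6.18 in KO untreated, 66.9 ± 3.61 in WT acetate and 88.5 ± 4.57 in WT untreated libraries. It fell with acetate in KO cells (-0.76, adjusted p = 3.78e-08). Pik3ip1, an inhibitor of PI3K, also fell there (-0.76, adjusted p = 0.000336). With acetate in WT cells 0 of the 15 rose and 4 fell (Pik3r1, Pik3cd, Pik3ip1 and Foxo3), beside 7.89% and 7.55% of all tested genes.

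Of 12 IL-7 receptor signalling genes, 5 rose and 3 fell in KO untreated against WT untreated cells, beside 18% and 18.6% of all tested genes. Without the libraries with a high share of 1 gene, 3 rose and 0 fell. Calls over all genes fell there too, from 2699 higher and 2782 lower to 1577 and 1784. With acetate in KO cells 1 of the 12 rose and 5 fell, beside 22.1% and 21.6% of all tested genes. In WT cells 0 rose and 2 fell, beside 7.89% and 7.55%. Jak3, the kinase bound to the common gamma chain, averaged 136 ± 5.02 CPM in KO acetate and 214 ± 9.33 CPM in KO untreated libraries and fell (-0.65, adjusted p = 3.94e-08). Crlf2, which pairs with the IL-7 receptor alpha chain in the receptor for TSLP, averaged 15.2 ± 2.17 CPM in KO acetate and 29.2 ± 3.38 CPM in KO untreated libraries and fell (-0.94, adjusted p = 1.87e-06). Bcl2, the survival gene downstream of IL-7, fell by 0.43 on the log2 scale (adjusted p = 0.000378).

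Of 18 genes for S1P receptors, egress and homing, 2 rose and 10 fell with acetate in KO cells, with a median log2 fold change of -0.22, beside the same 22.1% and 21.6% over all tested genes. In WT cells 3 rose and 7 fell, beside 7.89% and 7.55%. In KO untreated against WT untreated cells 3 rose and 4 fell, beside 18% and 18.6%. Without the libraries with a high share of 1 gene 3 rose and 1 fell. Calls over all genes fell there too, from 2699 higher and 2782 lower to 1577 and 1784. Dock2, needed for lymphocyte migration, averaged 192 ± 12 CPM in KO acetate and 277 ± 15.1 CPM in KO untreated libraries and fell (-0.53, adjusted p = 1.41e-05). Sphk1, which makes sphingosine 1-phosphate, rose (1.41, adjusted p = 0.00036) at 2.35 ± 0.446 CPM in KO acetate and 0.886 ± 0.312 CPM in KO untreated libraries. Rgs1, which dampens chemokine receptor signalling, averaged 399 ± 50.6 CPM in KO untreated and 224 ± 16.4 CPM in WT untreated libraries and rose (0.83, adjusted p = 1.65e-05).

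Of 17 TCF1, LEF1 and Wnt partner genes, 5 rose and 4 fell in KO untreated against WT untreated cells, and 4 rose and 5 fell with acetate in KO cells. In WT cells acetate raised 2 and lowered 0. The shares of all tested genes were 18% and 18.6%, 22.1% and 21.6%, and 7.89% and 7.55%, in the same order. Without the libraries with a high share of 1 gene, 3 rose and 2 fell in KO untreated cells. Calls over all genes fell there too, from 2699 higher and 2782 lower to 1577 and 1784. Axin2, a feedback inhibitor and common target of Wnt signalling, averaged 15.5 ± 1.81 CPM in KO acetate and 10.2 ± 1.92 CPM in KO untreated libraries and rose (0.6, adjusted p = 0.000602). Tle3, a Groucho corepressor, fell (-0.46, adjusted p = 8.04e-05).

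Genes of activated and effector T cells rose more often than they fell with acetate. This list too was chosen with earlier results of these data known, so its counts are no independent support. In KO cells 12 of 20 rose and 2 fell, with a median log2 fold change of 0.44, beside 22.1% higher and 21.6% lower over all tested genes. In WT cells 9 rose and 1 fell, with a median of 0.23, beside 7.89% and 7.55%. Without the libraries with a high share of 1 gene, 6 rose and 0 fell in WT cells. An unadjusted p under 0.05 was then reached by 3843 of 15374 tested genes, against 4253 of 14985 in the main fit. Tnfrsf9, the co-stimulatory receptor 4-1BB, averaged 174 ± 24.4 CPM in KO acetate, 65.9 ± 3.04 in KO untreated, 204 ± 31.6 in WT acetate and 146 ± 15.9 in WT untreated libraries. It rose with acetate in KO cells (1.4, adjusted p = 3.24e-08) and was lower in KO untreated than in WT untreated cells (-1.14, adjusted p = 7.92e-07). Gzmb, which encodes granzyme B, rose with acetate in KO cells (1.55, adjusted p = 3.09e-06). Cd44, the adhesion receptor of activated and memory cells, averaged 294 ± 32.9 CPM in KO acetate and 220 ± 11 CPM in KO untreated libraries and rose (0.42, adjusted p = 0.00214). Cd69, an early activation marker that holds S1PR1 inside the cell, averaged 85.6 ± 8.66 CPM in KO acetate and 72.1 ± 9.03 CPM in KO untreated libraries and was not called (0.25, adjusted p = 0.154). It rose with acetate in WT cells (0.49, adjusted p = 0.0239), a call that was lost without the libraries with a high share of 1 gene (0.46, adjusted p = 0.0743). Myc moved the other way in KO cells, with 404 ± 21.2 CPM in KO acetate and 599 ± 64.8 CPM in KO untreated libraries (-0.57, adjusted p = 2.5e-05). In KO untreated against WT untreated cells 2 of the 20 rose and 7 fell, beside 18% and 18.6% of all tested genes.

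**Figure D3:**
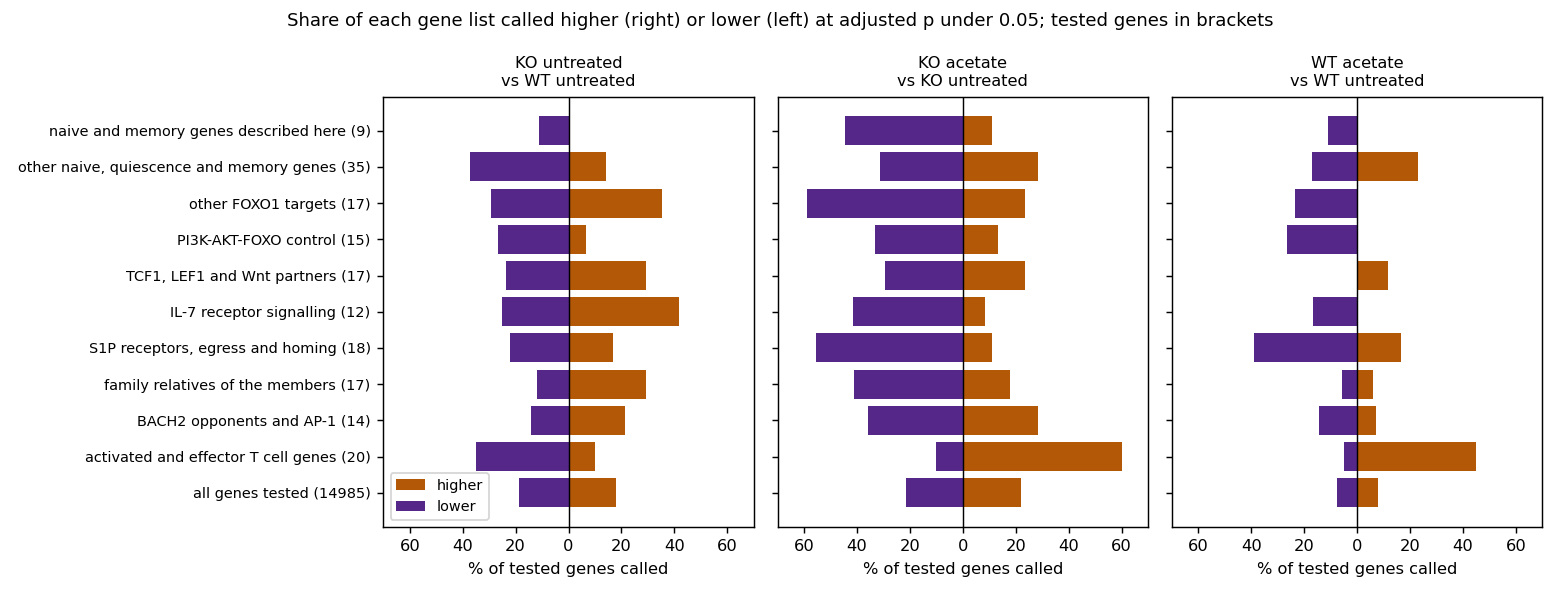
Share of the tested genes of each list (in percent) called higher (right) or lower (left) at an adjusted p under 0.05 in 3 comparisons, with all 14985 tested genes at the bottom; the number of tested genes is in brackets. With acetate in KO cells 12 of 20 activated and effector genes are higher, and 10 of 17 other FOXO1 targets are lower. The list labelled BACH2 opponents and AP-1 also holds MAF factors. The lists were chosen with earlier results of these data known.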

How the data were processed

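RNA-seq of 16 libraries was analysed. The values are estimated counts of each gene, which the authors deposited as whole numbers. Per the labels' protocols, RNA was isolated with a NucleoSpin kit and libraries were made with the TruSeq Stranded mRNA kit. Salmon, DESeq and DESeq2 are named, per the submitters' processing notes. Their versions, the build, the annotation and how the estimates became whole numbers were not given in the sources used here. Every gene in the table has at least 10 counts in at least 3 libraries, and 0 columns belonged to other samples. Of 15571 identifiers, 15221 matched a gene symbol.

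Counts were tested with edgeR 4.0.16 in R 4.3.3 (TMM scaling, filterByExpr by group, robust quasi-likelihood F test, Benjamini-Hochberg adjustment over 14985 genes), with all 16 libraries in 1 fit and no replicate term. CPM are counts per M of the TMM-scaled library size. The common biological coefficient of variation was 0.144. Within groups all 24 pairs of libraries differed by more than sampling noise (chi-square per degree of freedom 6.45 to 229). The test was checked on simulated data with few genes changed, equally up and down, in 1 group only. That check does not cover the scaling where many genes change. Alternatives were other scalings, filters, limma-voom (limma 3.58.1), DESeq2 1.42.0, a replicate block, fits of only the groups compared, and libraries left out.

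Members and lists were chosen with earlier results of these data known. Named genes were the 9, from every list up to 4 genes with the lowest adjusted p in KO untreated against WT untreated and in KO acetate against KO untreated, and Cd27, Cd44 and Cd69 always, of which a selection is printed. For each of the 9 genes, up to 2 similar genes were named. Some genes that this rule selects are not reported here. Tcf7l2, S1pr5, Prdm1 and some markers were not analysed here.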

Additional observations from a re-analysis of the deposited data

Results flagged for a closer look

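Il7r in WT untreated replicate 4 (78.5 CPM) lay apart from the other 3 WT untreated libraries (64.6 to 66.6 CPM), with a gap of 0.858 of the group's range. Lef1 in KO untreated replicate 4 (266 CPM) lay apart from the other KO untreated libraries (241 to 243 CPM), with a gap of 0.918 of the range. In both, the gap passed Dixon's critical value for 4 libraries, and 36 sets of 4 were examined. Chance alone flags about 1 in 20 such sets. With any 1 library of the groups compared left out, Lef1 stayed called in KO acetate against KO untreated (-0.52 to -0.4), and Il7r stayed uncalled in KO untreated against WT untreated (0.06 to 0.17). Il7r also stayed uncalled in such fits of KO acetate against WT untreated (-0.27 to -0.16, adjusted p 0.0588 to 0.208).

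The acetate effect on Satb1 differed between the genotypes by 0.59 on the log2 scale in the interaction test (adjusted p = 0.00188). It stayed past the threshold with each of the 16 libraries left out in turn, at 0.53 to 0.65.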

How the results depend on the processing

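Of the 54 values of the 9 genes over 6 comparisons, limma-voom kept all 54 on the same side of the threshold with the same sign, RLE size factors and no filter on low counts 53 each, the replicate block and a mean of at least 5 CPM 50 each, DESeq2 48, library totals 45 and leaving out the high-share libraries (the 4 in which 1 gene took over 3% of counts) 44. Fits of only the groups compared kept 42 of their 45 values. Satb1 in KO untreated against WT untreated cells (-0.67 to -0.62 with 1 library left out) and Lef1 with acetate in KO (-0.52 to -0.4) and WT cells (-0.41 to -0.36) stayed called in those fits.

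The count of the 9 genes called lower was 2 in KO untreated against WT untreated cells with RLE size factors, no filter, DESeq2, the replicate block or only the groups compared, 3 with library totals, and 1 to 2 with 1 library left out. In KO acetate against WT acetate it was 1 with DESeq2, 2 without the high-share libraries, and 0 to 3 with 1 library left out. In KO acetate against WT untreated it was 1 with library totals or a mean of at least 5 CPM, 4 with the replicate block, without the high-share libraries or with only the groups compared, 5 with DESeq2, and 1 to 4 with 1 library left out. In the interaction it was 1 with DESeq2, the replicate block or without the high-share libraries, and 0 to 1 with 1 library left out. Lower calls over all genes moved as well. KO untreated against WT untreated had 2782 in the main fit and 2282 to 2754 with 1 library left out. KO acetate against WT acetate had 77, 497 with DESeq2, 322 without the high-share libraries, and 7 to 425 with 1 left out. KO acetate against WT untreated had 2019, 1254 with library totals, and 1508 to 2048 with 1 left out. The interaction had 830, 464 without the high-share libraries, and 577 to 915 with 1 left out.

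Over all genes, KO acetate against WT acetate gave 73 higher and 77 lower calls, 28 and 50 with library totals, 334 and 497 with DESeq2, 182 and 226 with the replicate block, 213 and 322 without the high-share libraries, 13 and 3 with only the groups compared, 129 higher with a mean of at least 5 CPM, and 12 to 236 higher and 7 to 425 lower with 1 library left out. Without the high-share libraries, KO untreated against WT untreated gave 1577 higher and 1784 lower (main counts 2699 and 2782) and the interaction 546 and 464 (955 and 830). Library totals gave 2085 lower for KO acetate against KO untreated (3236 before), 558 for WT acetate against WT untreated (1132), 1254 for KO acetate against WT untreated (2019) and 442 for the interaction (830), and with them the median over all genes in the first of these was 0.09 on the log2 scale, against -0.01 with TMM scaling. With 1 library left out, WT acetate against WT untreated gave 734 to 1121 lower. The cause of these shifts was not tested.

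Signs of values that were never called changed as follows. With library totals Ccr7 and Tcf7 were at 0.08 and 0.09 in KO acetate against KO untreated, Il7r and S1pr1 at 0.03 and 0.01 in WT acetate against WT untreated, and Tcf7 at 0.01 in KO acetate against WT untreated. With a mean of at least 5 CPM, Tcf7 was at 0.01 in KO untreated and in KO acetate against WT untreated, and Il7r at 0.01 in WT acetate against WT untreated. Without the high-share libraries Tcf7 was at 0.02 in KO untreated against WT untreated, Foxo1 and Bach2 at -0.03 and -0.01 in KO acetate against KO untreated, and Foxo1 at -0.04 in the interaction. With 1 library left out, KO acetate against KO untreated ran from -0.19 to 0.07 for Ccr7, -0.07 to 0.05 for Tcf7, -0.02 to 0.14 for Foxo1 and -0.03 to 0.21 for Bach2. WT acetate against WT untreated ran from -0.08 to 0.06 for Il7r, -0.1 to 0.01 for S1pr1 and 0 to 0.05 for Foxo1. Bach2 ran from -0.03 to 0.07 in KO acetate against WT acetate, Tcf7 from -0.06 to 0.04 in KO untreated and -0.08 to 0.02 in KO acetate against WT untreated, and Foxo1 from -0.05 to 0.11 in the interaction.

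The replicate numbers in the titles are not stated to pair libraries. Deviations of same-numbered libraries correlated at -0.08 to 0.23 (median 0.05, 9 of 24 pairs over 0.1), and those of differently numbered ones at -0.2 to 0.2 (median -0.01, 8 of 72 over 0.1). KO acetate and KO untreated libraries of 1 number correlated at 0.09 to 0.17, and 9 of the 16 libraries correlated best with their own number. This is a hint of a shared replicate effect from the data, not from the design. Since some pairs were under 0.1 in every comparison, the block was kept as an alternative. With the block Klf2 (-1.06, adjusted p = 0.0176) and S1pr1 (-0.24, 0.0282) were called in KO acetate against WT untreated, S1pr1 in the interaction (0.0332), and Foxo1 in KO untreated against WT untreated (0.0396). Klf2 had the lowest counts of the 9 genes (83 to 513 a library) and coefficients of variation of 22.3% to 58.4% within groups.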

Other observations

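Relatives of the 9 genes by family moved in both directions. Of 17, 5 rose and 2 fell in KO untreated against WT untreated cells, 3 rose and 7 fell with acetate in KO cells, and 1 rose and 1 fell with acetate in WT cells. The shares of all tested genes were 18% and 18.6%, 22.1% and 21.6%, and 7.89% and 7.55%, in the same order. Klf13, a transcription factor of the KLF family, averaged 133 ± 12.6 CPM in KO acetate, 101 ± 4.06 in KO untreated, 143 ± 3.42 in WT acetate and 148 ± 4.71 in WT untreated libraries (SD, n = 4 each). It fell in KO untreated against WT untreated cells (-0.55, adjusted p = 2.26e-06) and rose with acetate in KO cells (0.4, adjusted p = 3.62e-05). Klf4, a KLF of quiescent cells, was at 10 ± 2.14 CPM in KO untreated and 5.39 ± 1.22 CPM in WT untreated libraries and rose (0.89, adjusted p = 0.000667).

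Among 14 AP-1, MAF and other factors listed beside BACH2, 3 rose and 2 fell in KO untreated against WT untreated cells. With acetate in KO cells 4 rose, Mafg and Mafk among them, and 5 fell. With acetate in WT cells 1 rose, Mafk, and 2 fell. Of all tested genes, 18% and 18.6% rose and fell in the first comparison. Those shares were 22.1% and 21.6% with acetate in KO cells, and 7.89% and 7.55% in WT cells. Fosl2 was at 45.6 ± 4.92 CPM in KO untreated and 145 ± 27.8 CPM in WT untreated libraries and fell (-1.67, adjusted p = 7.04e-05). With acetate in KO cells it rose (1.8, adjusted p = 2e-05). Batf3 averaged 12.2 ± 3.22 CPM in KO untreated and 4.06 ± 0.378 CPM in WT untreated libraries and rose (1.59, adjusted p = 0.000476), while acetate lowered it in KO cells to 2.89 ± 0.431 CPM (-2.08, adjusted p = 3.17e-05).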
